A study of Mus musculus with 8 samples.

Results

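The tumour necrosis factor (TNF) superfamily is a set of signalling ligands, most of them anchored in the cell membrane as trimers, and the family of receptors that bind them. The 45 genes considered here, 17 ligands and 28 receptors, were taken by name, and each was read through the probe sets (groups of short probes on the array) that the array annotation assigns to that gene alone. Of these, 40 genes (13 ligands and 27 receptors) had 64 such probe sets, among 18193 genes represented on the array. The brightest probe set stood for its gene. Genes were tested if their log2 signal, averaged over the 8 arrays, was at least the median across non-control probe sets (a signal of 68.8). This held for 15 of the 45, or 15 of the 40 with a probe set, and for 11345 of the 18193 genes represented.

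Ligand binding clusters the receptors. Those with an intracellular death domain, such as TNF receptor 1, Fas and the TRAIL receptor, can assemble complexes that activate caspases, while most of the others bind TRAF adaptor proteins and switch on NF-kB and stress kinases. TNF is shed from the cell surface by the protease TACE (encoded by Adam17), and in tumours it acts on cancer cells, vessels and leukocytes. Receptors such as 4-1BB, OX40, GITR and CD40 co-stimulate immune cells, and decoy receptors such as osteoprotegerin bind ligand without signalling.

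B16F1 cells, a mouse melanoma line, had been grown under the skin of the right hind limb of mice aged 8 to 12 weeks, in 5 to 7 mice of each host. There were 4 groups: irradiated tumours from TNFR KO hosts, untreated tumours from TNFR KO hosts, irradiated tumours from wild-type (WT) hosts and untreated tumours from WT hosts. TNFR KO hosts came from B6;129S-Tnfrsf1a[tm1Imx] Tnfrsf1b[tm1Imx]/J breeding pairs, disrupted in the genes of TNF receptors 1 and 2, and WT hosts were C57BL/6-NCr mice; the host strain label reads C57BL/6 for both. Irradiated tumours received a single dose of 20 Gy of X-rays, which was given at tumour volumes of 268 to 478 cubic mm, and all tumours were taken 5 h later. RNA of the whole tumours of a group was combined into 1 pool, and every pool was hybridised to 2 Affymetrix whole-genome mouse arrays. The labels name the disruption in the hosts alone, so the same B16F1 cells were in every tumour, and receptor transcripts of tumour cells and host cells were read together. The duplicates are technical: p-values from the 8 arrays measure the spread between arrays of the same RNA and none between mice, and in a whole-tumour pool fewer cells of a type and less RNA per cell cannot be told apart.

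Signals are MAS5 intensities scaled to the same trimmed mean on every array. Differences and folds are on the log2(signal + 16) scale, which understates the change of dim genes, and are given ± the standard error of limma. Effects over both hosts or both treatments passed at an adjusted p under 0.05 on the 4 pool means, and comparisons of single pools passed if they also reached 2-fold on the 8 arrays. Correlations over probe sets were 0.975 to 0.981 between duplicates, 0.971 to 0.972 between the 2 pools of a host and 0.955 to 0.964 across hosts. The 4 poly-A spike-in controls, added to RNA before labelling, averaged 13.2 to 18.1 on TNFR KO arrays and 3439 to 17814 on WT arrays, whereas the hybridisation control bioB averaged 587 on TNFR KO arrays and 627 on WT arrays. In every comparison of hosts below, host and preparation of the labelled RNA cannot be told apart. Within WT hosts the spike-ins were 1.67 to 2.16 times higher in the irradiated than in the untreated pool and the hybridisation controls 1.24 to 1.28 times. Signal of 18S ribosomal RNA was 944 in the irradiated TNFR KO pool, 529 in the untreated TNFR KO pool, 340 in the irradiated WT pool and 293 in the untreated WT pool. The part of these controls in the radiation differences was not tested. All 7 melanocyte markers reached the tested level in these tumours, at a summed signal of 154662 (TNFR KO irradiated), 153370 (TNFR KO untreated), 170611 (WT irradiated) and 150146 (WT untreated). The sum does not show every marker: Mitf averaged 4886, 6009, 8186 and 12313 in the same pools.

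The members read above the tested level were nearly all receptors. The tested members were 14 receptors and 1 ligand, Tnfsf9. The 12 ligands below that level lay between 3.3 and 100.9 on single arrays, and 3 of them (Cd40lg, Tnfsf4 and Tnfsf13b) reached it in 1 pool each. The 13 receptors below it lay between 1.8 and 132.5, and 5 of them reached it in at least 1 pool: Fas, Tnfrsf25, Tnfrsf23, Tnfrsf11a and Ngfr. The level was set on the mean of all arrays, so the 15 tested members are not the whole family, and no statement on them covers the others. Tnfrsf25 lay just inside the untested group at a mean log2 signal of 6.37, and Tnfrsf21 just inside the tested one at 6.59. Tnfsf12, Tnfsf13, Tnfsf15, Tnfsf18 and Tnfrsf26 had no probe set of their own. A probe set shared by Tnfsf12 and the readthrough gene Tnfsfm13 read 570.5 and 470.0 in the irradiated TNFR KO pool, 364.8 and 406.7 in the untreated TNFR KO pool, 474.1 and 476.4 in the irradiated WT pool, and 402.7 and 377.8 in the untreated WT pool, which cannot be divided between the genes. A probe set shared by these and Tnfsf13 read 201.4 and 247.3 in the irradiated TNFR KO pool, 249.4 and 247.8 in the untreated TNFR KO pool, 169.6 and 176.3 in the irradiated WT pool, and 162.3 and 132.1 in the untreated WT pool.

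**Figure D1:**
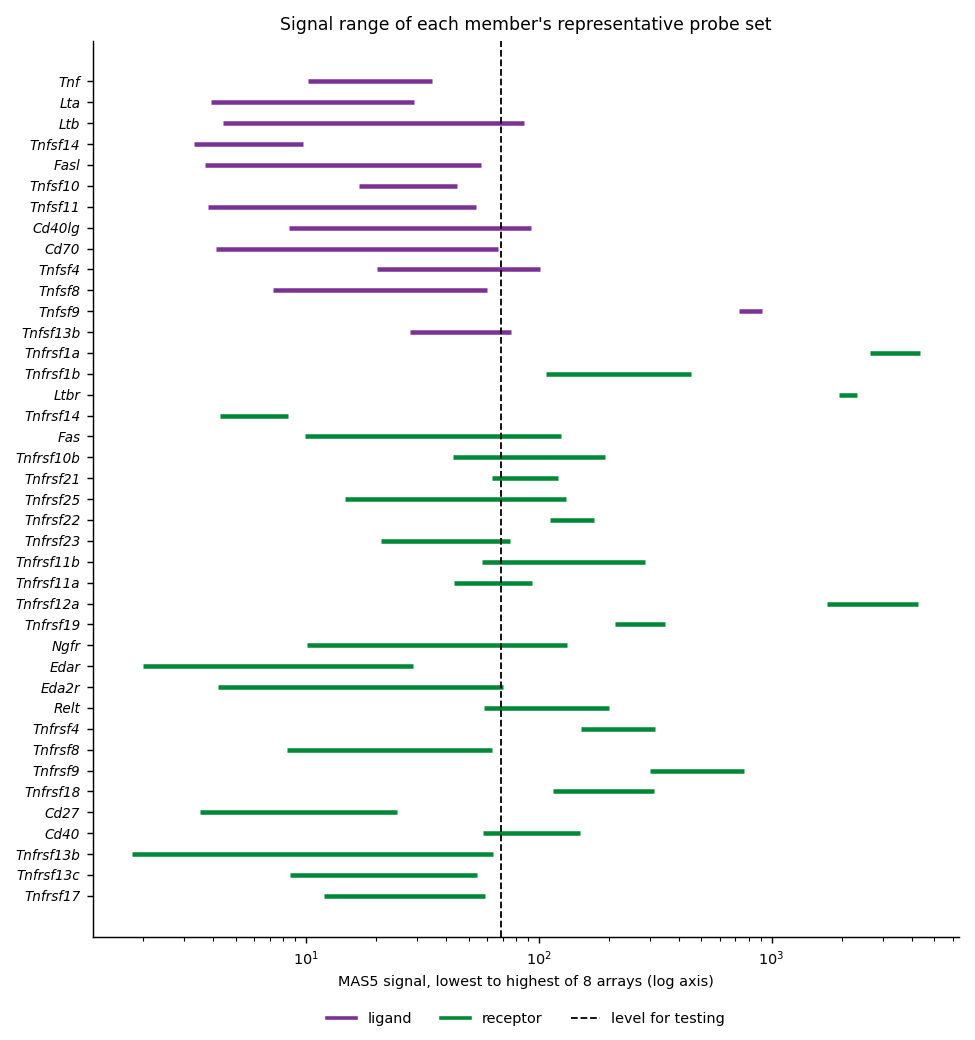
Signal of the representative probe set of each of the 40 members with one (horizontal log axis, MAS5 signal), as a bar from the lowest to the highest of the 8 arrays, purple for ligands and green for receptors; the dashed line is the level for testing, 68.8, applied to the mean log2 signal. Bars of different genes come from different probes and have no common scale; Tnfsf9 is the only ligand whose bar lies wholly right of the line.

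Among the ligands, Tnf, the founding member, read 11.8 and 15.9 in the irradiated TNFR KO pool, 12.6 and 15.3 in the untreated TNFR KO pool, 35.0 and 10.2 in the irradiated WT pool, and 19.4 and 12.9 in the untreated WT pool. All 8 arrays lay below the tested level and the pools overlapped in each comparison of single pools, so no difference in Tnf was detectable at this signal. Tnfsf9, the ligand of 4-1BB, read 898.2 and 912.4 in the irradiated TNFR KO pool, 869.2 and 790.6 in the untreated TNFR KO pool, 847.2 and 855.8 in the irradiated WT pool, and 726.9 and 745.6 in the untreated WT pool. It passed the test in none of the 7 comparisons, with an unadjusted p under 0.05 in 2 of them (limma). Its log2 difference with radiation was 0.12 ± 0.07 in TNFR KO hosts and 0.21 ± 0.07 in WT hosts (limma, adjusted p = 0.213 and 0.0660, 2 technical arrays a pool), and the WT value turned negative with arrays centred on the median.

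The genes disrupted in the hosts encode TNF receptor 1, which has a death domain, and TNF receptor 2, which has none and is found mainly on leukocytes and endothelium. Tnfrsf1a read 4339.6 and 4053.0 in the irradiated TNFR KO pool, 3278.9 and 3539.4 in the untreated TNFR KO pool, 3932.9 and 3816.0 in the irradiated WT pool, and 2652.6 and 2752.0 in the untreated WT pool. Within each treatment both TNFR KO arrays lay above both WT arrays, with a log2 difference of 0.22 ± 0.16 between hosts (additive limma fit on 4 pool means, adjusted p = 0.314). Where its probes lie relative to the disrupted part of the gene is not given in the sources used here, so neither receptor checks the host labels. With radiation the log2 difference of Tnfrsf1a was 0.30 in TNFR KO hosts and 0.52 in WT hosts, both under the 2-fold required of a comparison of single pools.

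Tnfrsf1b, by contrast, was lower in TNFR KO hosts, and its radiation difference passed in WT hosts alone. It read 108.0 and 147.0 in the irradiated TNFR KO pool, 127.6 and 127.3 in the untreated TNFR KO pool, 451.4 and 380.3 in the irradiated WT pool, and 225.2 and 157.5 in the untreated WT pool. Both irradiated WT arrays lay above all others, and the 4 TNFR KO arrays lay below the 4 WT arrays. Over both treatments it was lower in TNFR KO hosts, with a log2 difference of -1.06 ± 0.23 (limma, adjusted p = 0.00708), and the call was lost without WT irradiated array 1 (adjusted p = 0.0527) or WT untreated array 1 (-0.94, adjusted p = 0.108). It rose 2.10-fold with radiation in WT hosts (log2 1.07 ± 0.20, adjusted p = 0.0149), a call lost without WT irradiated array 1 (0.95, adjusted p = 0.0721) or WT untreated array 2 (0.84, adjusted p = 0.0596), while in TNFR KO hosts the log2 difference was -0.01 ± 0.20. The difference between these radiation effects was -1.09 ± 0.28 and did not pass (limma, adjusted p = 0.0655).

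Its dimmer probe set did not show this pattern as a whole. That probe set read 125.8 and 101.2 in the irradiated TNFR KO pool, 88.7 and 30.6 in the untreated TNFR KO pool, 141.4 and 37.8 in the irradiated WT pool, and 116.6 and 126.9 in the untreated WT pool. Its log2 difference with radiation was 0.88 in TNFR KO hosts and -0.58 in WT hosts, against -0.01 and 1.07 for the brighter probe set. Between hosts it was lower in TNFR KO hosts in untreated pools without overlap (-0.98), and the irradiated pools overlapped (0.49). With the mean of both probe sets the radiation difference in WT hosts was 0.25, so the result holds for 1 probe set of the gene.

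Markers of neutrophils, leukocytes that carry TNF receptors, were also highest in the irradiated WT pool. The 6 markers on the array (5 tested, Cxcr2 below the level) summed to 1259 in the irradiated TNFR KO pool, 1057 in the untreated TNFR KO pool, 23843 in the irradiated WT pool and 3887 in the untreated WT pool. Of the 5 tested, 4 rose with radiation in WT hosts, where 2.25% of all tested genes did, and 0 in TNFR KO hosts (2 at an unadjusted p under 0.05), where 0.881% did. In irradiated pools 3 were lower in TNFR KO than in WT hosts, as were 7.43% of all tested genes (limma). S100a8 led the sum, at 596 ± 9.40 in the irradiated TNFR KO pool and 13868 ± 295 in the irradiated WT pool (SD, n = 2 arrays). Neutrophil markers were not alone in this. The NK cell list summed to 276 in the irradiated TNFR KO pool, 209 in the untreated TNFR KO pool, 368 in the irradiated WT pool and 244 in the untreated WT pool. The T cell sum was also highest in the irradiated WT pool (600), as was the melanocyte sum given above. In the NK and T cell lists 1 marker each reached the tested level. The part of these cells in the Tnfrsf1b signal was not tested.

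Irradiation was compared with no treatment to find which members respond to 20 Gy. Over both hosts 3 of the 15 tested members rose and 0 fell, all 3 of them receptors: Tnfrsf10b, the mouse TRAIL receptor with a death domain, Tnfrsf11b, the secreted decoy osteoprotegerin, and Tnfrsf18, the co-stimulatory receptor GITR. Among all 11345 tested genes 1.55% rose and 0.353% fell, 1.9% in all, and 7 members had an unadjusted p under 0.05 (limma). Of the 45 tested signalling and processing genes described below, 6 were under 0.05. The median log2 difference was 0.21 over the members and -0.02 over all tested genes. Centring each array on its median moved that all-gene median by -0.14 and the share of calls that were higher to 50.8%, against 81.5% as scaled by the authors, and 1 member (Tnfrsf10b) was then called; quantile normalization gave 91.7% and 0 members (6 at an unadjusted p under 0.05).

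Tnfrsf10b read 191.9 and 169.5 in the irradiated TNFR KO pool, 85.8 and 74.2 in the untreated TNFR KO pool, 163.5 and 139.9 in the irradiated WT pool, and 43.0 and 43.6 in the untreated WT pool. Both irradiated pools lay above both untreated pools on every array. It rose 2.40-fold over both hosts (log2 1.27 ± 0.18, limma, adjusted p = 0.00456), 2.05-fold in TNFR KO hosts (1.04 ± 0.10, adjusted p = 0.00330) and 2.82-fold in WT hosts (adjusted p = 0.000945). The dimmer of its probe sets gave log2 differences of 1.21 in TNFR KO hosts and 1.04 in WT hosts. Leaving out 1 array at a time moved the value over both hosts between 1.21 and 1.32 and kept the call only without WT irradiated array 2, the adjusted p running from 0.0145 to 0.160. The TNFR KO value fell short of 2-fold without TNFR KO irradiated array 1 (0.95) or TNFR KO untreated array 2 (0.95); the WT call was kept without each array.

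Tnfrsf10b is a known p53 target, and so are Fas and Eda2r (the receptor of ectodysplasin A2), which were below the tested level. Fas, the receptor of Fas ligand, read 64.7 and 12.0 in the irradiated TNFR KO pool, 24.8 and 9.9 in the untreated TNFR KO pool, 58.9 and 124.9 in the irradiated WT pool, and 37.4 and 29.8 in the untreated WT pool; the TNFR KO pools overlapped and the WT pools did not. Eda2r read 57.7 and 32.3 in the irradiated TNFR KO pool, 14.9 and 12.7 in the untreated TNFR KO pool, 35.6 and 70.3 in the irradiated WT pool, and 24.2 and 4.2 in the untreated WT pool, and neither host's pools overlapped. Among p53 targets outside the family, Cdkn1a, the cell-cycle inhibitor p21, rose over both hosts by a log2 difference of 1.87 ± 0.16 (limma, adjusted p = 0.000320). Ccng1, cyclin G1, rose by 1.64 ± 0.20 (adjusted p = 0.00245), and Mdm2, which marks p53 for degradation, by 0.97 ± 0.21 (adjusted p = 0.0437). The Mdm2 call was lost without any 1 array (0.79 to 1.16), the Cdkn1a call without WT irradiated array 1 (1.86), WT untreated array 1 (1.86) or WT untreated array 2 (1.87), and the Ccng1 call without 5 of the 8 arrays (1.60 to 1.66). By host, Cdkn1a and Ccng1 passed in both. Mdm2 passed in TNFR KO hosts (1.39 ± 0.28, limma, adjusted p = 0.0188) and not in WT hosts (0.56 ± 0.28, adjusted p = 0.187).

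Tnfrsf11b read 99.9 and 142.3 in the irradiated TNFR KO pool, 78.4 and 57.4 in the untreated TNFR KO pool, 210.8 and 285.0 in the irradiated WT pool, and 148.3 and 107.2 in the untreated WT pool. Within each host both irradiated arrays lay above both untreated ones, and within each treatment both TNFR KO arrays lay below both WT ones. It rose with radiation over both hosts by 0.79 ± 0.16 on the log2 scale (limma, adjusted p = 0.0398), a call that was lost whichever array was left out (0.68 to 0.90, adjusted p = 0.0876 to 0.238). The dimmer Tnfrsf11b probe set lay below the tested level on every array. Its log2 difference with radiation was 0.74 in TNFR KO hosts and 0.06 in WT hosts, where the pools overlapped. Between hosts that probe set differed by -0.22 in irradiated and -0.89 in untreated pools, with overlap in both. Tnfrsf18 read 311.3 and 294.0 in the irradiated TNFR KO pool, 125.7 and 174.8 in the untreated TNFR KO pool, 266.7 and 195.0 in the irradiated WT pool, and 115.8 and 142.3 in the untreated WT pool. Its irradiated arrays all lay above its untreated arrays. It rose over both hosts by 0.86 ± 0.16 (limma, adjusted p = 0.0266), and this call was kept only without WT irradiated array 2, the value running from 0.75 to 0.96 and the adjusted p from 0.0321 to 0.250 over the 8 arrays left out.

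Within single hosts, 1 of the 15 tested members rose with radiation in TNFR KO hosts (Tnfrsf10b), where 0.881% of all tested genes rose and 0.485% fell (1.37% in all), and 3 rose in WT hosts (Tnfrsf1b, Tnfrsf10b and Tnfrsf12a), where 2.25% rose and 0.203% fell (2.45% in all); 0 members fell in either host. The members with an unadjusted p under 0.05 (limma) were 6 in TNFR KO hosts and 10 in WT hosts. These p-values rest on duplicate arrays alone. Of the 45 tested signalling and processing genes described below, 23 in TNFR KO hosts and 20 in WT hosts were also under 0.05. The member median was 0.23 in TNFR KO hosts, against -0.02 over all tested genes, and 0.52 in WT hosts, against -0.02. In WT hosts centring on the median moved the all-gene median by -0.26 and the share of higher calls to 55.6%, against 91.7%. Tnfrsf10b alone of the members was then called.

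Tnfrsf12a encodes Fn14, the receptor of the ligand TWEAK, which rises in injured tissue. It read 3105.6 and 2928.1 in the irradiated TNFR KO pool, 2260.6 and 2273.2 in the untreated TNFR KO pool, 3982.5 and 4248.0 in the irradiated WT pool, and 1790.7 and 1733.7 in the untreated WT pool. The untreated WT arrays were the lowest and the irradiated WT arrays the highest of the 8, with both TNFR KO pools between them. With radiation it rose 2.32-fold in WT hosts (log2 1.22 ± 0.06, limma, adjusted p = 0.000407). Within TNFR KO hosts its irradiated signal was 1.33-fold the untreated one (0.41 ± 0.06, limma, adjusted p = 0.00945), under the 2-fold required. The radiation effects differed by -0.81 ± 0.09 on the log2 scale (TNFR KO minus WT, adjusted p = 0.00932), a 1.75-fold difference that also stayed under 2-fold. The other Tnfrsf12a probe set gave log2 differences of 0.40 in TNFR KO hosts and 1.26 in WT hosts. With arrays centred on the median the WT value was 0.96, short of 2-fold.

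**Figure D2:**
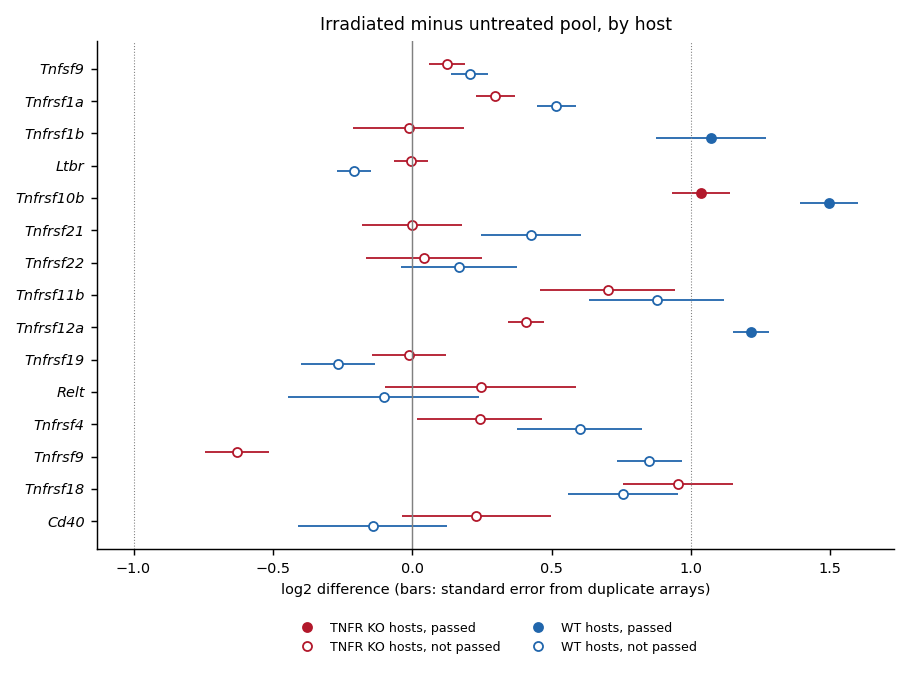
Log2 difference, irradiated minus untreated, of the 15 tested members in TNFR KO hosts and in WT hosts (horizontal axis; bars are the limma standard error from duplicate arrays, dotted lines mark 2-fold, filled points passed). Tnfrsf10b passed in both hosts, Tnfrsf1b and Tnfrsf12a in WT hosts, and Tnfrsf9 lay below 0 in TNFR KO hosts and above 0 in WT hosts.

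TNFR KO hosts were compared with WT hosts to find members whose level in the tumour goes with the host. Over both treatments 3 of the 15 tested members differed: Relt, a receptor found in haematopoietic tissue, was higher in TNFR KO hosts, and Tnfrsf1b and Tnfrsf11b were lower. Tnfrsf1b is itself disrupted in these hosts, and the part of the disruption in its signal was not tested. Of all tested genes 12% were higher and 18.9% lower, 30.9% in all, so the 20.0% of members called is no more than the share of genes in general. The member median was 0.22, against 0.09 over all tested genes. With arrays centred on the median, 19.4% of all calls were higher, against 38.9%.

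Tnfrsf11b was lower in TNFR KO hosts by a log2 difference of -0.86 ± 0.16 (limma, adjusted p = 0.00329), and that call was kept without each of the 8 arrays. Relt read 149.3 and 199.7 in the irradiated TNFR KO pool, 123.8 and 165.4 in the untreated TNFR KO pool, 94.6 and 69.4 in the irradiated WT pool, and 130.1 and 58.5 in the untreated WT pool. Its irradiated pools did not overlap between hosts, and its untreated pools did. It was higher in TNFR KO hosts by 0.78 ± 0.17 (limma, adjusted p = 0.00651), which fell to 0.54 without WT untreated array 2, where the call was lost (adjusted p = 0.146).

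Between single pools, 1 member was called in each treatment. In irradiated pools Tnfrsf1b was lower in TNFR KO hosts, 3.03-fold (log2 -1.60 ± 0.20, limma, adjusted p = 0.00117), a call kept without each array and lost with the mean of both probe sets (-0.56, adjusted p = 0.189); of all tested genes 0.793% were higher and 7.43% lower there, 8.22% in all. In untreated pools Tnfrsf9 was 2.24-fold higher in TNFR KO hosts (log2 1.16 ± 0.12, adjusted p = 0.000629), where 2.06% of all tested genes were higher and 6.25% lower, 8.31% in all. The member median was 0.11 in irradiated pools, against 0.06 over all tested genes, and 0.21 in untreated pools, against 0.08. In untreated pools, centring on the median moved the all-gene median by -0.20 and the share of higher calls to 10.3%, against 24.8%. The Tnfrsf9 value was then 0.97, short of 2-fold.

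**Figure D3:**
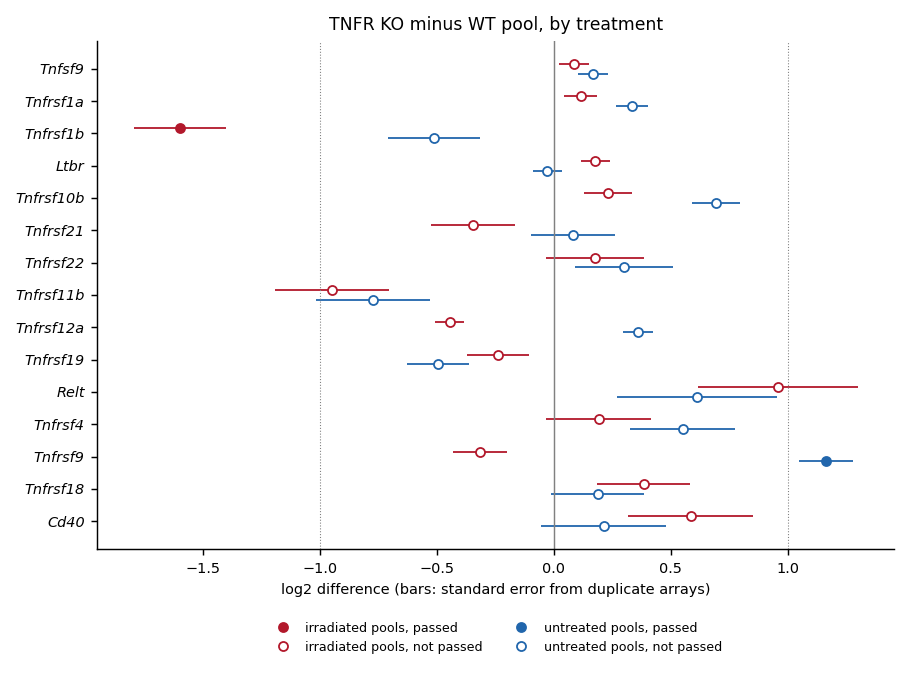
Log2 difference, TNFR KO minus WT, of the 15 tested members in irradiated pools and in untreated pools (horizontal axis; bars are the limma standard error from duplicate arrays, dotted lines mark 2-fold, filled points passed). Tnfrsf1b passed in irradiated pools and Tnfrsf9 in untreated pools; Tnfrsf11b lay below 0 and Relt above 0 in both.

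Members beside the disrupted genes were read for the same comparison, since DNA of the 129 strain can stay linked to them in a B6;129S stock. Ltbr, the lymphotoxin beta receptor, is separated from Tnfrsf1a by 1 protein-coding gene on chromosome 6 in the RefSeq gene order. It read 2333.1 and 2206.3 in the irradiated TNFR KO pool, 2311.7 and 2239.8 in the untreated TNFR KO pool, 2060.7 and 1952.1 in the irradiated WT pool, and 2306.9 and 2332.3 in the untreated WT pool. Its log2 difference between hosts was 0.07 ± 0.16 over both treatments (limma, adjusted p = 0.750), and its sign turned negative with arrays centred on the median. Cd27, with 3 genes between it and Tnfrsf1a, and Tnfrsf8 (CD30), next to Tnfrsf1b on chromosome 4, were below the tested level, at 3.5 to 24.6 and 8.3 to 63.3. Tnfrsf9, Tnfrsf4 and Tnfrsf18 also lie on chromosome 4, with 72, 156 and 157 protein-coding genes between them and Tnfrsf1b. How much 129 DNA these hosts carried there is not given in the sources used here, and its part in the host differences was not tested. The other tested members not described above (Tnfrsf21, Tnfrsf22, Tnfrsf19, Tnfrsf4 and Cd40) passed in no comparison. Among them the log2 difference between hosts over both treatments lay between -0.37 ± 0.17 for Tnfrsf19 and 0.40 ± 0.17 for Cd40. Other probe sets of Tnfrsf19 and Cd40 differed in direction from the brightest. The next Tnfrsf19 probe set had a log2 difference with radiation of 0.49 in WT hosts, against -0.27 for the brightest, and a Cd40 probe set had 0.83 in WT hosts, against -0.14. For Tnfrsf22 the dimmest probe set (14.4 to 86.7) had 0.56 in TNFR KO hosts and 1.14 in WT hosts, against 0.04 and 0.17 for the brightest. The other Tnfrsf22 probe set had 0.09 and -0.06. A probe set shared by Tnfrsf22 and Tnfrsf23 averaged 236 (TNFR KO irradiated), 264 (TNFR KO untreated), 350.5 (WT irradiated) and 193 (WT untreated).

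The radiation effects of the 2 hosts were then compared with each other. Tnfrsf9 was the 1 member of 15 past the threshold, its radiation effect lower in TNFR KO than in WT hosts; of all tested genes 2.05% differed in that direction and 0.159% in the other, 2.21% in all. The member median of the difference was -0.17, against -0.01 over all tested genes. Centring on the median moved the all-gene median by 0.23 and the share of positive calls to 38.0%, against 7.17%.

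Tnfrsf9 encodes 4-1BB (CD137), a receptor induced on activated T cells and on other leukocytes and endothelium. It read 456.8 and 513.4 in the irradiated TNFR KO pool, 750.8 and 764.9 in the untreated TNFR KO pool, 650.2 and 566.8 in the irradiated WT pool, and 361.4 and 300.1 in the untreated WT pool. The order of the pools ran opposite ways in the hosts: irradiated arrays lay below untreated arrays in TNFR KO hosts and above them in WT hosts. The log2 difference with radiation was -0.63 ± 0.12 in TNFR KO hosts (limma, adjusted p = 0.0148) and 0.85 ± 0.12 in WT hosts (adjusted p = 0.00616), each under 2-fold. The difference between them was -1.48 ± 0.16 (adjusted p = 0.00908), and leaving out each array in turn gave -1.61 to -1.35 and kept the call.

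The next brightest Tnfrsf9 probe set ran the same way, at 79.6 and 42.4 in the irradiated TNFR KO pool, 89.3 and 154.4 in the untreated TNFR KO pool, 171.5 and 145.7 in the irradiated WT pool, and 60.8 and 30.5 in the untreated WT pool. The dimmest read 33.7 and 54.8 in the irradiated TNFR KO pool, 38.2 and 75.6 in the untreated TNFR KO pool, 4.4 and 33.9 in the irradiated WT pool, and 29.2 and 29.4 in the untreated WT pool, mostly below the tested level, and had a log2 difference with radiation of -0.25 in TNFR KO hosts and -0.51 in WT hosts. With the mean of the 3 probe sets the difference between radiation effects was -1.20 (adjusted p = 0.0579).

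**Figure D4:**
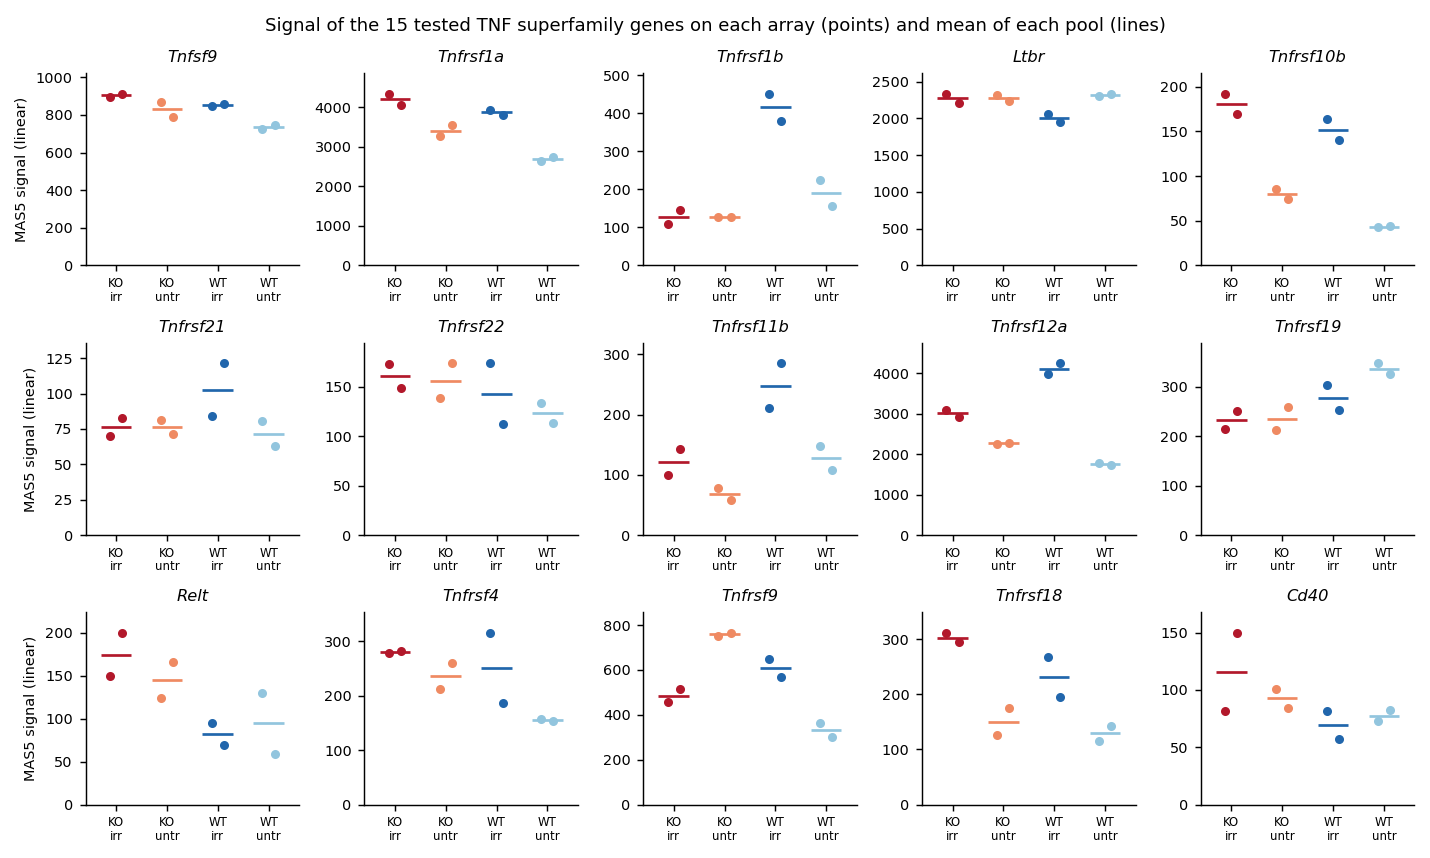
Signal on each of the 8 arrays (vertical axes, MAS5 signal, starting at 0) of the 15 tested members, for the pools TNFR KO irradiated (KO irr), TNFR KO untreated (KO untr), WT irradiated (WT irr) and WT untreated (WT untr); points are arrays and lines the mean of a pool. Tnfrsf10b was higher in both irradiated pools, Tnfrsf12a was highest in the irradiated WT pool, and Tnfrsf9 was highest in the untreated TNFR KO pool.

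The summed signal of macrophage markers followed the same order of pools as Tnfrsf9, and single markers did not all do so. The 11 markers, all tested, summed to 8964 in the irradiated TNFR KO pool, 13036 in the untreated TNFR KO pool, 11920 in the irradiated WT pool and 6014 in the untreated WT pool, and all 11 had a lower radiation effect in TNFR KO hosts, a difference that passed for 8 (limma, against 2.05% of all tested genes passed in that direction). Cd14, Mrc1 and Mertk were highest in the irradiated WT pool, with Cd14, a co-receptor for lipopolysaccharide, at 532 in the irradiated TNFR KO pool, 437 in the untreated TNFR KO pool, 2302 in the irradiated WT pool and 416 in the untreated WT pool. Csf1r, the receptor of the macrophage growth factor CSF1, averaged 1198 ± 12.4 in the irradiated TNFR KO pool, 2431 ± 70.0 in the untreated TNFR KO pool, 1251 ± 0.212 in the irradiated WT pool and 789 ± 3.54 in the untreated WT pool (SD, n = 2 arrays). Marker sums of fibroblasts, endothelium and keratinocytes had the same highest and lowest pools, and again single markers did not all follow. Fibroblast markers summed to 10292 in the irradiated TNFR KO pool, 15508 in the untreated TNFR KO pool, 8011 in the irradiated WT pool and 5174 in the untreated WT pool, and 5 of the 7 tested had a lower radiation effect in TNFR KO hosts that passed. Col1a1, Col1a2 and Col3a1 followed the fibroblast sum. Dcn (374) and Postn (613) were instead highest in the irradiated WT pool, and Lum (188) in the untreated WT pool. Pdgfrb was lowest in the irradiated WT pool (297). Endothelial markers summed to 2374, 3066, 2063 and 1601 in the same pools, and keratinocyte markers to 791, 2101, 593 and 390. Pecam1, Cdh5, Esam and Emcn followed the endothelial sum. In the irradiated WT pool Cldn5 (336) was highest, and Kdr (163) and Tie1 (69.4) were lowest. Of the 7 keratinocyte markers 4 lay below the tested level. Skeletal muscle markers ran otherwise, summing to 672, 1433, 1029 and 3248 in the same pools, highest in the untreated WT pool. Of the 5 tested, 3 fell with radiation in each host (limma), where 0.485% (TNFR KO) and 0.203% (WT) of all tested genes fell. Of 9 T cell markers on the array 1 (Cd8a) reached the tested level, and Cd3d, Cd3e, Cd3g, Cd4 and Foxp3 did not. The T cell list summed to 574 in the irradiated TNFR KO pool, 446 in the untreated TNFR KO pool, 600 in the irradiated WT pool and 475 in the untreated WT pool. The part of these cells in the Tnfrsf9 signal was not tested.

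Promoters are shown for the 3 tested members with the largest differences between the radiation effects of the hosts (Tnfrsf9, Tnfrsf1b and Tnfrsf12a), a choice made after their values were seen. They are RefSeq sequences on GRCm38.p6, 250 bases before to 50 after a start site. RefSeq gives 2 starts for Tnfrsf9, and the array does not say which transcript was read. Capitals mark matches, on either strand, to the kappaB motif (GGGA and CC with any 4 bases between), the AP-1 motif TGANTCA, the cyclic AMP response motif TGACGTCA or the GC box GGGCGG.
Tnfrsf9 start 1, chr4:150919905-150920204, plus strand: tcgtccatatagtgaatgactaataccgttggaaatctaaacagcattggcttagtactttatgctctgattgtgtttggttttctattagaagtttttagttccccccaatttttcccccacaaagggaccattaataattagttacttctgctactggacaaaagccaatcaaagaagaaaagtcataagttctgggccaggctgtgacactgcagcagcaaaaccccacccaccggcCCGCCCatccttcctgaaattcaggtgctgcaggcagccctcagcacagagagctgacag
Tnfrsf9 start 2, chr4:150927749-150928048, plus strand: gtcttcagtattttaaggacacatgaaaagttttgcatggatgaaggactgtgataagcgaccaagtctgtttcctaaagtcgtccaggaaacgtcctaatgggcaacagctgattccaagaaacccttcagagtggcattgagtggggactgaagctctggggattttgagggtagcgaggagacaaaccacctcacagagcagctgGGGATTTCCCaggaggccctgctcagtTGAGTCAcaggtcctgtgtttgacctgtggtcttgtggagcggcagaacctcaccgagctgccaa
Tnfrsf12a, chr17:23677400-23677699, minus strand: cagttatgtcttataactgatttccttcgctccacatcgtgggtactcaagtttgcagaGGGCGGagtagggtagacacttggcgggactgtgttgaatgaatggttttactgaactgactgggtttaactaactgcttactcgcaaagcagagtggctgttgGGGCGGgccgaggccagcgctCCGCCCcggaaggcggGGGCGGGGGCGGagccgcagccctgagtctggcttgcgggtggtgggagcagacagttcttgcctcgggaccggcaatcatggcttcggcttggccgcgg
Tnfrsf1b, chr4:145246821-145247120, minus strand: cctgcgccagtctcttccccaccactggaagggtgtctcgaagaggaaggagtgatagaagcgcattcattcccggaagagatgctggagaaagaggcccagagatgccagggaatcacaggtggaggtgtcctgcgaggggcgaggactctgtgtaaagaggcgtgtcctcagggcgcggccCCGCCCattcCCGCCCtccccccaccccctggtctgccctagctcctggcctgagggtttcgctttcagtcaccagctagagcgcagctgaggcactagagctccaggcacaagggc

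The second Tnfrsf9 start held a kappaB match (GGGATTTCCC) 42 bases and an AP-1 match (TGAGTCA) 15 bases before the start site, and the first held 1 GC box. Tnfrsf12a held 5 GC boxes and Tnfrsf1b 2, with no match to the other motifs in either window; no matches overlapped. Of 39 promoters found for 35 members, 11 (28.2%) held the kappaB motif, against 20.7% of the 32851 promoters in the table, and 7 (17.9%) held the AP-1 motif, against 7.81%. The GC box was in 19 (48.7%), against 35.7%, and the cyclic AMP response motif in 0, against 1.79%. A match describes letters in a window and says nothing of binding.

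Signalling partners of the receptors and the proteases that release the ligands were read as a list of 54 genes, 50 on the array and 45 tested. Over both hosts 2 rose with radiation and 0 fell (limma, 6 at an unadjusted p under 0.05, 1.9% of all tested genes called), in TNFR KO hosts 1 rose (2.22% of the list, against 1.37% of all tested genes), and in WT hosts 3 rose (6.67%, against 2.45%). The radiation effects of the hosts differed for 3, all lower in TNFR KO hosts (6.67%, against 2.21%). Between hosts over both treatments 6 were higher and 9 lower in TNFR KO hosts, 33.3% of the list, against 30.9% of all tested genes. The list's median log2 difference was 0.02 there, against 0.09 over all tested genes, and 0.04 with radiation over both hosts, against -0.02.

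Tnfaip3 and Birc3 rose with radiation in WT hosts, and the radiation effects of the 2 hosts differed for both genes. Tnfaip3 encodes A20, a ubiquitin-editing enzyme that restrains NF-kB and is itself an NF-kB target. It read 189.6 and 189.5 in the irradiated TNFR KO pool, 216.5 and 220.2 in the untreated TNFR KO pool, 526.5 and 552.7 in the irradiated WT pool, and 198.4 and 184.0 in the untreated WT pool, so that the irradiated WT pool alone stood out. It rose in WT hosts by a log2 difference of 1.42 ± 0.06 (limma, adjusted p = 0.000270), and the radiation effects differed by -1.61 ± 0.09 (TNFR KO minus WT, adjusted p = 0.00172), calls kept without each array, although the WT rise fell just short of 2-fold with the mean of its probe sets. Birc3, which encodes the ubiquitin ligase cIAP2 that binds TRAF2, read 145.4 and 112.1 in the irradiated TNFR KO pool, 234.7 and 199.6 in the untreated TNFR KO pool, 437.5 and 507.2 in the irradiated WT pool, and 223.1 and 185.8 in the untreated WT pool. It rose in WT hosts by 1.15 ± 0.16 (adjusted p = 0.00614), and its radiation effects differed by -1.84 ± 0.22 (adjusted p = 0.0111), again kept without each array. With the mean of its probe sets both Birc3 calls were lost (limma, 0.78 in WT hosts, adjusted p = 0.0637, and -1.44 for the difference, adjusted p = 0.0541), and the WT rise fell short of 2-fold with arrays centred on the median (0.89) or a pseudocount of 64. Timp3, an inhibitor of TACE, was the only other list member whose radiation effects differed, at -1.06 ± 0.13 (adjusted p = 0.0117), short of 2-fold without TNFR KO untreated array 1 (-0.98) or WT irradiated array 2 (-0.97), and likewise with arrays centred on the median (-0.83), a pseudocount of 64 (-0.94) or the mean of probe sets (-0.89).

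**Figure D5:**
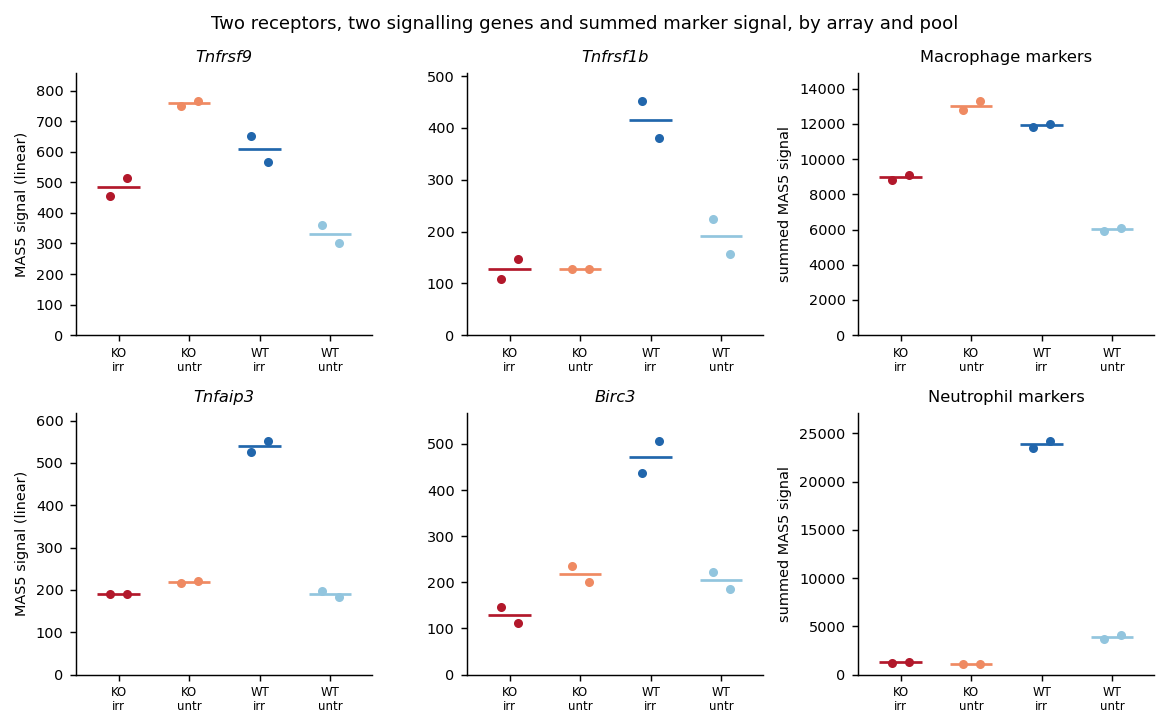
Signal on each array of Tnfrsf9, Tnfrsf1b, Tnfaip3 and Birc3, and summed signal of the macrophage and neutrophil marker lists (vertical axes, MAS5 signal, starting at 0), for the pools TNFR KO irradiated (KO irr), TNFR KO untreated (KO untr), WT irradiated (WT irr) and WT untreated (WT untr); points are arrays, for the lists the lower and higher of a pool, and lines are pool means. Tnfrsf9 and the macrophage markers peaked in untreated tumours of TNFR KO hosts and were lowest in those of WT hosts, as were the fibroblast, endothelial and keratinocyte sums (not drawn), while Tnfrsf1b, Tnfaip3, Birc3 and the neutrophil markers were highest in the irradiated WT pool.

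Rhbdf2 and Siva1 rose with radiation, and were picked from the list genes called after their values were seen. Rhbdf2, which encodes iRhom2, a protein that brings TACE to the cell surface, read 680.9 and 738.9 in the irradiated TNFR KO pool, 374.8 and 399.1 in the untreated TNFR KO pool, 348.1 and 312.3 in the irradiated WT pool, and 84.2 and 21.9 in the untreated WT pool. It was higher in TNFR KO hosts over both treatments by 1.89 ± 0.30 (limma, adjusted p = 0.00128; 2.24 without WT untreated array 1, adjusted p = 0.0531). It rose with radiation in WT hosts by 2.49 ± 0.41 (adjusted p = 0.0110), and the duplicates of the untreated WT pool differed widely, so that this value was 1.79 without array 2 of that pool and 3.19 without array 1. Without WT irradiated array 1 it was 2.41 and the call was lost (adjusted p = 0.0557). The rise over both hosts (1.67 ± 0.30, adjusted p = 0.0195) was lost whichever array was left out (1.32 to 2.02). Siva1, whose product binds the receptor CD27 and is a p53 target, read 9119.6 and 9117.1 in the irradiated TNFR KO pool, 4445.0 and 4452.1 in the untreated TNFR KO pool, 7902.7 and 7217.2 in the irradiated WT pool, and 4359.4 and 4321.0 in the untreated WT pool. It rose over both hosts by 0.91 ± 0.16 (adjusted p = 0.0195), a call kept only without WT irradiated array 2, and in TNFR KO hosts by 1.03 ± 0.06 (adjusted p = 0.000993).

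Among genes lower in TNFR KO hosts, Tab3 and Map3k7, which encode a subunit and the kinase of the TAK1 complex, differed by -1.70 ± 0.17 and -1.10 ± 0.16 over both treatments (limma, adjusted p = 0.000245 and 0.000836). With the mean of its probe sets Map3k7 differed by -0.36, and the call was lost (limma, adjusted p = 0.106). Adam10, a protease that sheds several family members, differed by -1.01 ± 0.16 (adjusted p = 0.00149). Adam17, which encodes TACE, differed by -0.66 ± 0.16 (limma, adjusted p = 0.0123), while Rhbdf2 was higher in these hosts. With the mean of its probe sets Adam17 differed by -0.40, and the call was lost (limma, adjusted p = 0.0717). Ripk3, the kinase of necroptosis, was higher in TNFR KO hosts by 0.82 ± 0.18 (adjusted p = 0.00733), a call lost without WT untreated array 1 (0.92, adjusted p = 0.0510). The poly-A controls differed between the same pools, and their part in these host differences was not tested.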

How the data were processed

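Whole B16F1 tumours were measured on 8 arrays, 2 technical arrays for each of 4 RNA pools. The deposited values are signal intensities on a linear scale; MAS5 is named per the submitters' processing notes, and its version and settings are not given in the sources used here. All 8 arrays shared the same 2%-trimmed mean, the mark of scaling to 1 target. The table held no detection calls, and 0 of its columns were left unused. The number of arrays limits the precision.

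From these, log2(signal + 16) was computed, so differences of dim genes depend on that pseudocount. Of 45101 probe sets, the annotation named 1 gene for 34945, several for 932 and none for 9160, and 64 were controls. The brightest probe set naming a gene alone stood for each of 18193 genes, and 11345 genes with a mean log2 signal of at least 6.41 (the median of non-control probe sets) were tested. All 40 members with a probe set were matched by gene identifier to RefSeq (GRCm38.p6), with 0 symbols changed.

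Tests used limma 3.58.1 in R 4.3.3, two-sided, with Benjamini-Hochberg adjustment over the 11345 genes; figures used matplotlib 3.10.9. Effects of host over both treatments and of radiation over both hosts came from an additive model on the 4 pool means (1 residual and 9.52 prior degrees of freedom) and were called at an adjusted p under 0.05. With 1 pool a group, the error of that model is how far the hosts' radiation effects lie apart, and it holds no spread between replicate pools. Single-pool comparisons and the difference between radiation effects came from a model of 4 group means over all 8 arrays (4 residual and 1.99 prior degrees of freedom) and also required 2-fold; they compare pools against the spread of duplicate arrays, not conditions. The radiation fits were tested on simulated data with a radiation change shared by both hosts. No change between hosts and no difference between radiation effects was simulated, so recovery of those was not tested.

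The members, the 54 signalling and processing genes and the cell marker lists were chosen with earlier results of these data known. Every array is given for Tnfrsf1a, Tnfrsf1b, Tnf and each member called in at least 1 comparison; up to 8 called list genes a comparison, by size of difference, could be named, and the ones printed were picked from these after their values were seen. Tnfsf9, Fas, Eda2r and Ltbr are given on every array by choice. Adam17, outside the limit of 8, is named as the gene of TACE. Cdkn1a, Mdm2 and Ccng1 served as p53 target comparators. Alternatives were quantile normalization, centring on the median, no pseudocount or 64, no filter, averaging the probe sets of a gene, a 1.5-fold threshold, dropping each array in turn, and the 8 arrays taken as replicates, blocked by replicate number or not. Same-numbered arrays of different pools did not deviate together (r = -0.03 to 0.05), so the numbers do not pair arrays.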

Additional observations from a re-analysis of the deposited data

Results flagged for a closer look

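Tnfrsf9 had opposite signs of the radiation difference in the 2 hosts, and the difference between them, TNFR KO minus WT, was -1.48 on the log2 scale. The test of that difference used duplicate arrays of 1 pool a group (limma, adjusted p = 0.00908). For Tnfrsf12a the same difference was -0.81 (limma, adjusted p = 0.00932), with a log2 radiation difference of 0.41 in TNFR KO hosts and 1.22 in WT hosts. Variation between mice enters neither test.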

How the results depend on the processing

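No called log2 difference of a member changed sign under any alternative run, whereas uncalled ones did in 15 cases with arrays centred on the median and 8 with quantile normalization; of 1666 recomputed member values, 1585 stayed on the same side of the threshold, 51 lost the call and 30 gained it. Counts below are of all tested genes and then of members. Radiation over both hosts (216 and 3) gave 12 and 0 with quantile normalization, 1 member with arrays centred on the median, 84 and 1 with no pseudocount, 510 genes with a pseudocount of 64, 0 and 0 with no filter on low signal (limma; 1998 genes and 11 members at an unadjusted p under 0.05) and 329 genes with the mean of probe sets. Leaving out 1 array gave 0 to 126 genes and 0 to 2 members; every array moved the gene count by over 1.5 times, and without WT untreated array 1 it was 0 (1553 at an unadjusted p under 0.05). Host over both treatments (3504 and 3) gave 0 and 0 with no filter (4487 and 9 at an unadjusted p under 0.05), and 1981 to 2972 genes and 2 to 3 members with 1 array left out. Radiation in TNFR KO hosts (155 and 1) gave 2 members with quantile normalization or no pseudocount, 102 and 0 with a pseudocount of 64 (6 members at an unadjusted p under 0.05), 760 and 3 at 1.5-fold, and 142 to 166 and 0 to 1 with 1 array left out. Radiation in WT hosts (278 and 3) gave 1 member centred on the median, 174 genes with a pseudocount of 64, 877 and 6 at 1.5-fold, and 246 to 284 and 2 to 3 with 1 array left out. Host in irradiated pools (933 and 1) gave 2 members with quantile normalization, no pseudocount or no filter, 584 and 0 with the mean of probe sets (3 members at an unadjusted p under 0.05), 2942 and 2 at 1.5-fold, and 908 to 1025 and 1 to 2 with 1 array left out. Host in untreated pools (943 and 1) gave 0 members centred on the median (6 at an unadjusted p under 0.05), 584 and 0 with the mean of probe sets (4), 2730 and 3 at 1.5-fold, and 933 to 973 and 1 to 2 with 1 array left out. The difference between radiation effects (251 and 1) gave 0 members with the mean of probe sets (2 at an unadjusted p under 0.05), 647 and 2 at 1.5-fold, and 161 to 211 and 1 member with 1 array left out. The causes were not tested. Treating the 8 arrays as replicates, without a replicate block, gave 2471 and 5 for radiation and 6446 and 6 for host; with the replicate block these were 1771 and 5, and 6106 and 6. In the single-pool comparisons the replicate block moved no count by over 1.5 times, although the numbers do not pair arrays. Ligands, Fas and Eda2r are limited by signals near background.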
